A study of Mus with 2 samples.

Results

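The interferon-stimulated spots of 2 CT26 tumor sections are described here. They were chosen by the summed level of Usp18, Ifi44, Oasl2, Oas3, Isg15, Ifit1, Ifit3 and Rsad2, 8 genes that interferon induces, and the 10% of spots with the highest sum were taken in each section. This gave 417 of 4169 spots in all, 222 of 2219 in the control section and 195 of 1950 in the rIL7 section. Both tumors grew under the skin of balb/c mice aged 6 to 8 weeks after injection of 200000 CT26 cells, a colon carcinoma line of that strain. The rIL7 mouse received 10 µg of recombinant mouse IL-7 into the peritoneum on day 11 and again on day 13 after transplantation, the control mouse is labelled PBS, and both tumors carry the label of day 15. Each group is 1 section of 10 µm from 1 tumor, so there is no replicate, no test was possible and no p-value is given. A spot is a small area of the Visium array over several cells, often of more than 1 type, and its value is the number of unique molecular identifiers (UMIs) of each gene, given as counts per 1e+06 UMIs (CPM).

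Type I interferons bind a receptor that nearly every cell carries, and the kinases and STAT factors behind it switch on a large set of interferon-stimulated genes, many of which block viral replication. Interferon gamma, made mainly by T cells and NK cells, acts through its own receptor, and induces an overlapping set that includes the guanylate-binding proteins, Cxcl9 and antigen presentation genes. In tumors both kinds of signal have been linked to dying cells, to sensing of nucleic acids and to infiltrating leukocytes.

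The sum that chose the spots stood at 1176 CPM in the lowest chosen control spot and at 1173 CPM in the highest spot left out. In the rIL7 section these values were 897 and 889 CPM, so the limit cut a continuous distribution in each tumor. The medians of this sum were 1737 CPM in the chosen and 259 CPM in the other control spots, and 1246 and 257 CPM in the rIL7 section. A spot was called on few molecules: chosen spots held a median of 17 UMIs of the 8 genes in the control tumor and 14 in the rIL7 tumor, other spots 3 in both, and 14 and 6 chosen spots held fewer than 5. The chosen spots together carried 38.6% of the UMIs of the 8 genes in the control tumor and 33.5% in the rIL7 tumor. Against the control limit, 114 rIL7 spots or 5.85% (95% exact binomial interval 4.85 to 6.98%) would have been chosen, and against the rIL7 limit 317 control spots or 14.3% (12.9 to 15.8%). Intervals here and below cover counting error only and take no account of how animals, sections or libraries vary.

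The sections held 22951678 UMIs (control) and 25729233 UMIs (rIL7) in the kept spots. Chosen spots were shallower than others, with a median of 8190.5 against 9767 UMIs in the control tumor and 11106 against 13047 in the rIL7 tumor. The UMIs of a spot divide the sum that chose it, so its depth was not independent of the choice. The mitochondrial share was 0.190% against 0.259% in the control tumor and 0.170% against 0.151% in the rIL7 tumor. In this assay fewer cells of a type and less RNA per cell cannot be told apart.

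**Figure D1:**
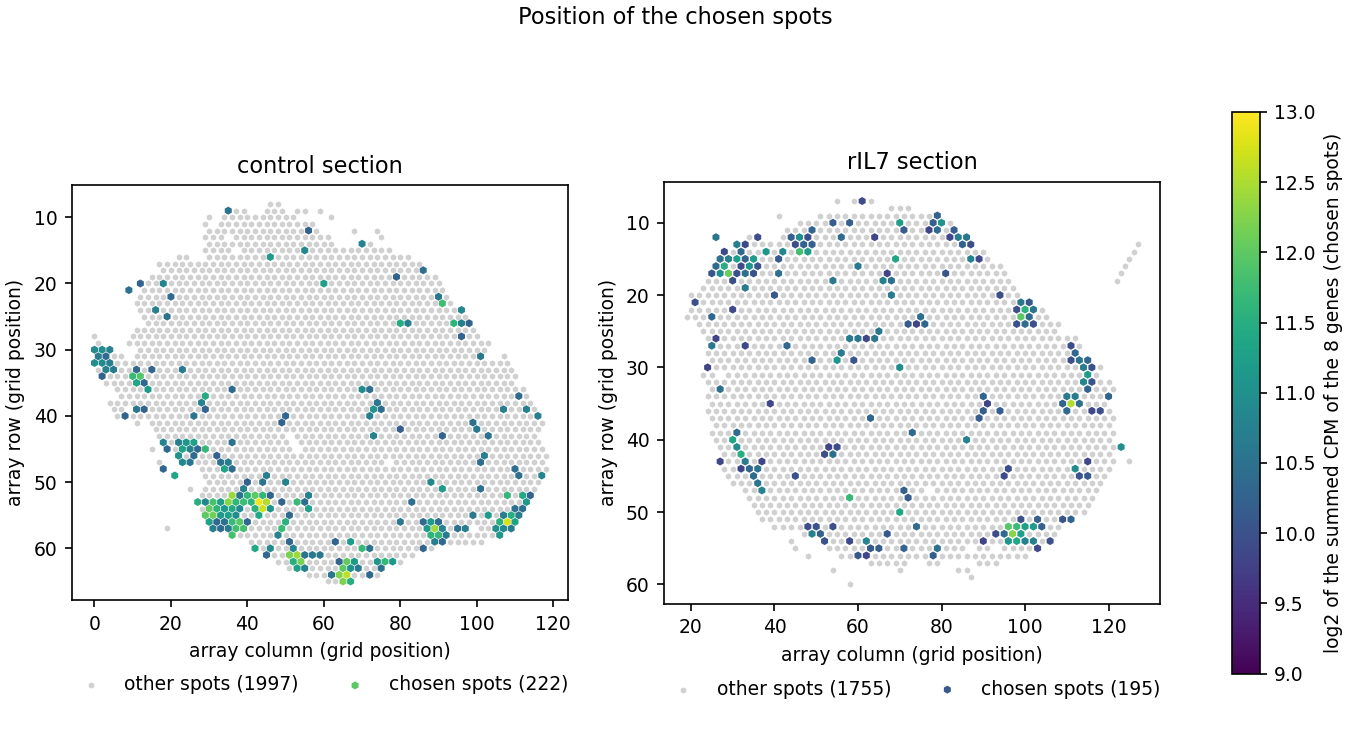
Position of the chosen spots on the Visium array, with array column and row as axes, the control section on the left and the rIL7 section on the right. Grey marks the 1997 and 1755 other spots, and colour gives the log2 of the summed CPM of the 8 genes in the 222 and 195 chosen spots, of which 41.9% and 36.9% lie at the edge and many lie in groups.

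The 8 genes themselves are given only as a description, since they chose the spots. Rsad2, the antiviral enzyme viperin, was at 145.5 CPM in chosen and 13.7 CPM in other control spots, and at 103.5 and 10.9 CPM in the rIL7 section. Isg15, a ubiquitin-like modifier, took the largest share of the sum, 37.9% of its UMIs in the chosen control spots and 30.7% in the chosen rIL7 spots. Usp18, which removes Isg15 from proteins and dampens the type I receptor, was at 176.9 against 28.8 CPM in the control tumor and 100.04 against 19.2 CPM in the rIL7 tumor. To read each gene without its own part in the choice, the spots were chosen again on the other 7 genes. Each gene was then higher in the chosen spots of both sections. The ratios ran from 4.59 for Oasl2 to 9.11 for Rsad2 in the control section, and from 3.10 for Oasl2 to 8.51 for Rsad2 in the rIL7 section. Oasl2 and Oas3 belong to the oligoadenylate synthetase family, and Ifit1, of the same family as Ifit3, binds foreign RNA. Ifit1 and Ifit3 lie near each other on chromosome 19 (34640889 to 34650009 and 34583119 to 34588982, GRCm38.p6), as do Oasl1 and Oasl2 on chromosome 5. Reads of such related genes may be split between them, so values for members of the Oas, Ifit, Ifi200, Slfn, Apol9, Phf11 and Gbp families are uncertain as to the member.

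All other genes were then compared between chosen and other spots of the same section, over 9204 genes with at least 10 CPM in both sections. At 1.5-fold or more, 307 genes were higher in the chosen control spots (3.34% of the genes counted) and 260 were lower (2.82%). In the treated section 238 were higher (2.59%) and 107 lower (1.16%). Of these, 118 and 57 were at least 2-fold higher, against 22 and 9 at least 2-fold lower, so the larger differences were mostly upward in both tumors. The 95% interval lay past 1 for 305 of 307 and for 238 of 238 higher genes, but for 221 of 260 and 90 of 107 lower genes. The 4 quadrants of the section, which are not replicates, all shared the direction for 259 of the 307 and 212 of the 238 higher genes, and for 160 of the 260 and 77 of the 107 lower genes. The expression sums that chose the spots and the genes below come from the same UMIs of the same spots, so these counts describe the spots and test nothing.

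The type I interferon effectors moved together. Of 61 genes listed, 52 were counted. In the control section 47 of the 52 were at least 1.5-fold higher and 0 lower, with a median log2 ratio of 1.41, where the median over all genes counted was -0.02. In the tumor given rIL7 41 of the 52 were higher and 0 lower, with a median of 0.97 against -0.03 over all genes. By quadrant the median ran from 1.23 to 1.40 in the control tumor and from 0.84 to 1.16 in the rIL7 tumor, so no quadrant of either tumor lacked the pattern. The control value over the whole section lies just above all 4 of its quadrants.

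Cmpk2, a mitochondrial nucleotide kinase whose gene lies beside Rsad2 on chromosome 12 (26469117 to 26479837, GRCm38.p6), was at 55.2 CPM in chosen and 9.42 CPM in other control spots. In the rIL7 section it was at 47.7 and 7.52 CPM. It was 5.86-fold higher (4.59 to 7.45) in the control tumor and 6.34-fold higher (4.95 to 8.08) in the rIL7 tumor, where it had the largest ratio of any gene counted. Oasl1, which restrains translation of Irf7, stood at 104.2 against 19.5 CPM and at 76.9 against 20.6 CPM, ratios of 5.35 and 3.73. Oas1a and Oas1g, which make the second messenger of RNase L, had ratios of 4.18 and 4.52 in the control tumor and of 2.92 and 3.49 in the rIL7 tumor. Phf11b had ratios of 5.63 and 3.74 and Phf11d of 4.08 and 2.93. Among the remaining named genes, Slfn1 and Slfn8 of the Schlafen family rose 4.32-fold and 4.43-fold in the control, and 3.29-fold and 2.82-fold in the rIL7 section.

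Effectors with other roles are given next. Bst2, the tetherin that holds budding virions at the membrane, was at 1251 against 518.9 CPM in the control tumor and 957.0 against 514.9 CPM in the rIL7 tumor. These are ratios of 2.41 (2.31 to 2.52) and 1.86 (1.78 to 1.94). Zbp1, a sensor of Z-form nucleic acids, was at 228.5 against 67.3 CPM and at 255.0 against 112.5 CPM, ratios of 3.40 and 2.27. Eif2ak2, the RNA-activated kinase PKR, was 3.28-fold higher in the control tumor and 1.80-fold in the rIL7 tumor. The members under 1.5-fold were Nampt, Tdrd7, Ogfr, Stoml1 and Shisa5 in the control, between 0.989 and 1.40. In the treated section there were 11 such members, from 1.15 for Stoml1 to 1.49 for Lgals3bp. Mx1, Mx2 and Mnda were not analysed here.

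**Figure D2:**
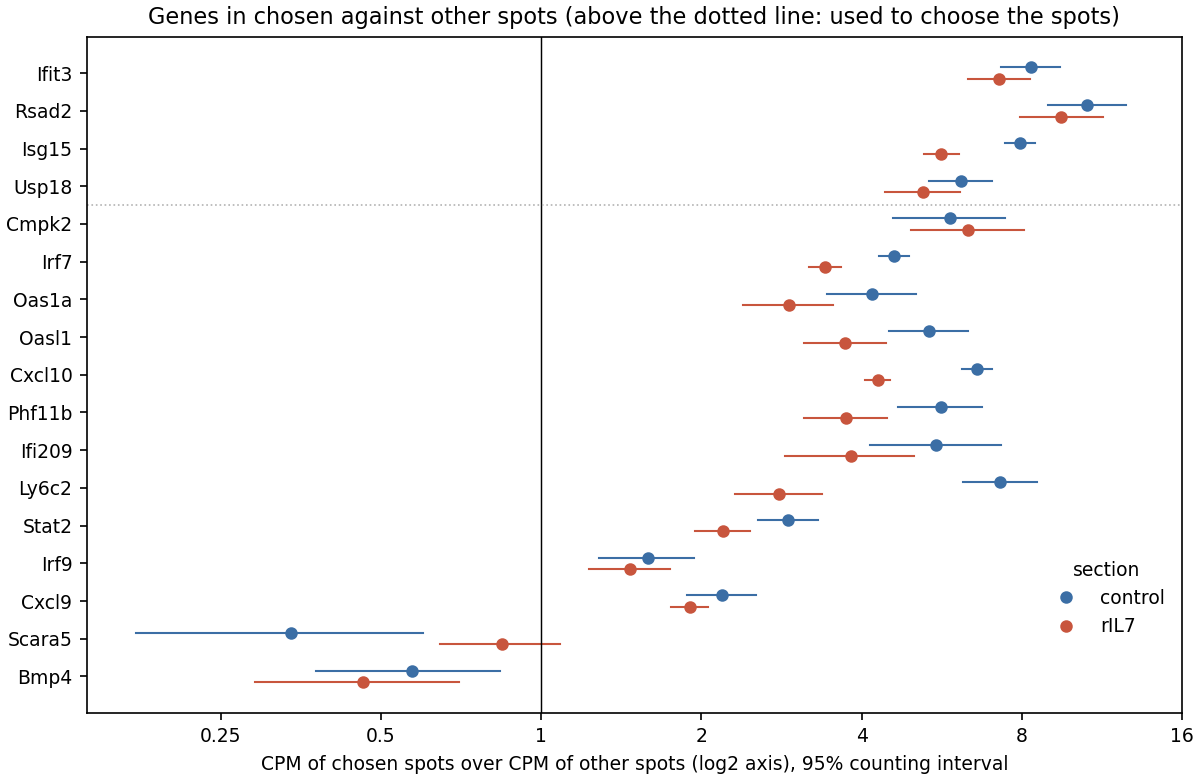
Ratio of the CPM of chosen spots to that of other spots (log2 axis) for 17 genes in the control section (blue) and the rIL7 section (red), with 95% counting intervals as bars. The 4 genes above the dotted line helped to choose the spots, and of the 13 below it the interferon-stimulated genes lie to the right of 1 in both sections. Scara5 and Bmp4 lie to the left, but the rIL7 interval of Scara5, 0.645 to 1.08, includes 1.

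Several transcription factors of the pathway rose, and its receptors and kinases did not reach 1.5-fold. Irf7, the factor that amplifies type I interferon responses, was at 689.6 CPM in chosen and 149.96 CPM in other control spots, and at 467.5 and 137.0 CPM in the rIL7 section. It was 4.60-fold higher (4.31 to 4.90) in the control tumor and 3.41-fold higher (3.18 to 3.66) in the rIL7 tumor. Stat2, a partner of Irf9 in the complex that type I interferon activates, had ratios of 2.91 and 2.19. Irf9 had ratios of 1.59 (1.29 to 1.94) and 1.47 (1.23 to 1.75) and so passed 1.5-fold only in the control.

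Over the 18 signalling factors, 8 were called higher in the control tumor and 7 in the rIL7 tumor, with 0 lower in either. The medians were 0.38 and 0.35. Irf5 and Irf8, factors of myeloid cells, had ratios of 1.87 and 1.67 in the control tumor and of 1.82 and 1.55 in the rIL7 tumor. Socs1, the feedback inhibitor of the kinases, was 1.55-fold and 1.67-fold higher. By contrast Ifnar1 and Ifnar2, the chains of the type I receptor, stood at ratios of 1.14 and 0.998 in the control tumor and of 0.971 and 1.18 in the rIL7 tumor. Ifngr1, a chain of the interferon gamma receptor, was at 0.798 (0.695 to 0.912) and 0.977 (0.878 to 1.08), and Jak1 at 0.912 and 1.08.

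Sensors of RNA were higher and the adaptors below them were not past 1.5-fold. Of 14 sensors and adaptors counted, 5 were called higher in the control tumor and 4 in the rIL7 tumor, with 0 lower, and both medians were 0.42. Dhx58, Ifih1 and Ddx58, which encode the cytosolic RNA helicases LGP2, MDA5 and RIG-I, had control ratios of 3.68, 2.90 and 2.73. Their rIL7 ratios were 2.78, 2.21 and 2.10. Tlr3, the endosomal sensor of double-stranded RNA, had ratios of 2.38 and 1.75. The DNA sensor Cgas had ratios of 1.29 (0.897 to 1.81) and 1.35 (0.982 to 1.83), and Tmem173, which encodes the adaptor STING, of 1.04 and 0.985.

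Transcripts of the interferons themselves were almost absent. Ifnb1, which encodes interferon beta, gave 2 UMIs in the chosen and 4 in the other control spots, and 1 and 2 UMIs in the rIL7 section. The other type I and type III interferon genes listed gave 0 UMIs in the chosen spots of both sections, which allows up to 1.55 CPM in the control tumor and 1.29 CPM in the rIL7 tumor (3 UMIs). Ifng, which encodes interferon gamma, gave 2 UMIs in chosen and 51 in other control spots, and 14 and 128 UMIs in the rIL7 section. Its ratio was 0.425 (0.0501 to 1.62) in the control tumor and 1.099 (0.584 to 1.91) in the rIL7 tumor. At this depth no difference in interferon transcripts between chosen and other spots was detectable.

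Genes that interferon gamma induces were also higher. Of 26 counted, 19 were called higher in the control tumor and 15 in the rIL7 tumor, with 0 lower. Their medians were 1.08 and 0.73. Cxcl10, a chemokine that draws T cells and that both kinds of interferon induce, was at 805.2 against 122.1 CPM in the control tumor and at 876.3 against 204.4 CPM in the rIL7 tumor. It was 6.60-fold (6.19 to 7.03) and 4.29-fold (4.07 to 4.52) higher. Cxcl9, a chemokine for the same receptor that depends more on interferon gamma, was at 112.4 against 51.4 CPM and at 299.2 against 157.4 CPM, ratios of 2.19 and 1.90. Cxcl9 was thus at a higher level in the other spots of the rIL7 section than in the chosen spots of the control.

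Guanylate-binding proteins and immunity-related GTPases, which attack the vacuoles of intracellular pathogens, rose in both tumors. Gbp3 had ratios of 3.20 and 2.15, Gbp2 of 2.59 and 1.75 and Igtp of 2.90 and 1.88. Ccl5, a chemokine of T cells and macrophages, was at 358.0 against 95.6 CPM in the control tumor and at 486.9 against 229.1 CPM in the rIL7 tumor. At the outer edge of the rIL7 section its log2 ratio was -0.18, and in the interior it was 1.47. Cxcl11 and Gm12250 were not analysed here.

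**Figure D3:**
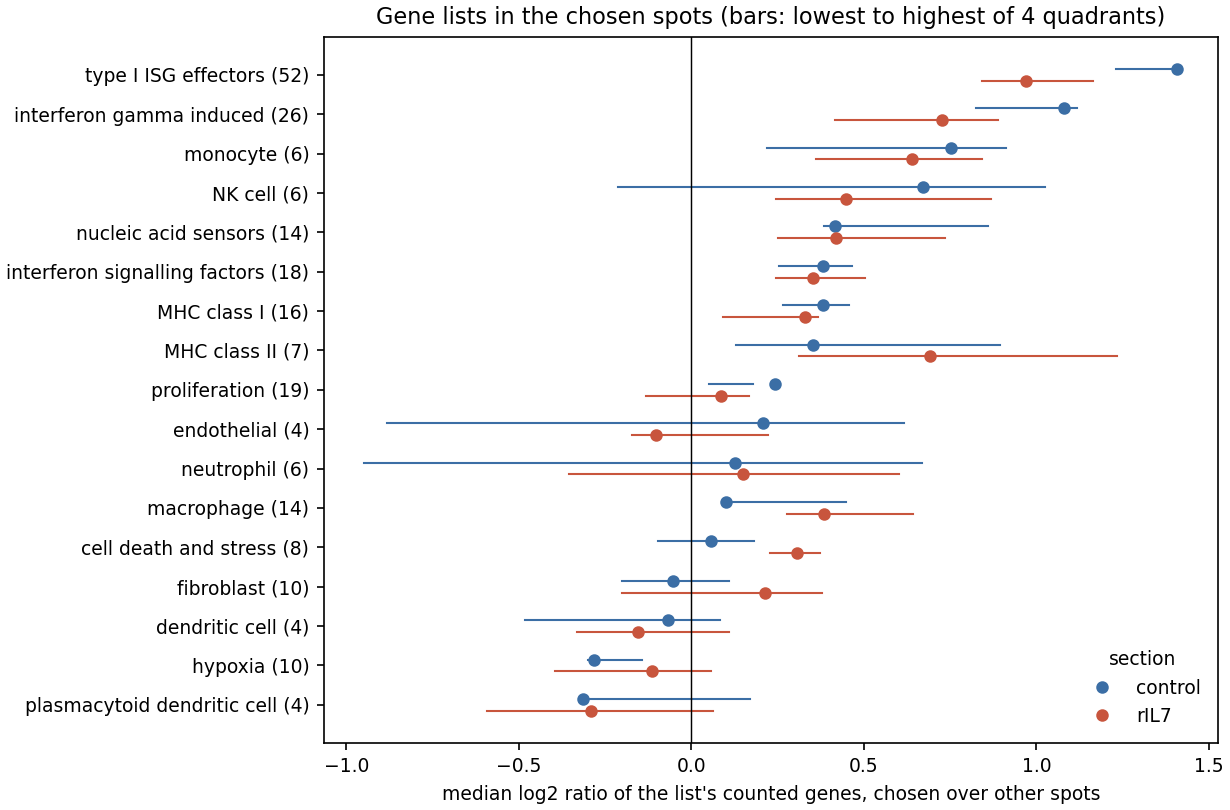
Median log2 ratio, chosen over other spots, of each list with at least 4 counted genes (their number in parentheses), with control in blue and rIL7 in red. Bars run from the lowest to the highest of the medians in 4 quadrants of the section, and the type I effectors (1.41 and 0.97) and the interferon gamma induced genes (1.08 and 0.73) lie furthest to the right in both sections.

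MHC class I genes moved less than the interferon gamma induced genes in both sections, and class II genes did so clearly only in the control. In MHC class I presentation 5 of 16 genes were called higher in the control tumor and 1 in the rIL7 tumor, with medians of 0.38 and 0.33. The non-classical H2-T23 had ratios of 1.65 and 1.51 and the peptide transporter Tap1 of 1.53 and 1.46. The classical chains H2-K1 and H2-D1, already at 1911 and 3769 CPM in the other control spots, stood at 1.13 and 1.05 in the control tumor and at 1.14 and 1.11 in the rIL7 tumor. For MHC class II 0 of 7 genes were called in the control tumor and 4 in the rIL7 tumor, with medians of 0.35 and 0.69. Cd74, the invariant chain, had ratios of 1.48 and 1.62 and H2-Ab1 of 1.36 and 1.61. The quadrants of chosen and of other spots overlapped for the summed class II level in both sections, at 2603 to 5340 against 1243 to 3988 CPM in the control tumor and at 3221 to 7048 against 2406 to 3753 CPM in the rIL7 tumor. For the summed type I effectors they did not overlap, at 8453 to 11062 against 4377 to 5075 CPM in the control tumor and at 7868 to 8931 against 4624 to 4955 CPM in the rIL7 tumor.

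Markers of leukocytes were mixed. The general macrophage list had medians of 0.10 and 0.39, with 2 of 14 genes called higher in each section. Those genes were Fcgr1, the high-affinity Fc receptor, at 2.32 and 2.01, and Aif1 at 1.91 and 1.75, whereas the complement gene C1qa was at 1.04 and 1.34 and Mrc1, the mannose receptor, at 0.785 and 0.946. In the tumor given rIL7 the class II and macrophage levels moved with the edge of the tissue. Summed class II expression there was 8387 CPM in chosen and 7863 CPM in other spots of the edge, but 3485 and 2449 CPM in the interior. The macrophage sum was 10789 and 10474 CPM at the edge and 7049 and 5513 CPM in the interior. Within the edge the median log2 ratios in the rIL7 section were 0.12 for class II and 0.08 for macrophage genes, and within the interior 0.49 and 0.30. The part of these cells in the interferon pattern was not tested.

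Ly6c2, a surface antigen of inflammatory monocytes that interferon also induces, was at 132.6 against 18.2 CPM in the control tumor and at 62.2 against 22.3 CPM in the rIL7 tumor. Its ratio was 7.29 (6.20 to 8.56) in the control section and 2.80 (2.31 to 3.37) in the rIL7 section. The control ratio was the largest among counted genes whose interval lay past 1 and whose direction was shared by 4 quadrants. Plac8 had ratios of 3.76 and 2.22 and Ly6c1 of 2.32 and 1.78. The chemokine receptor Ccr2, which defines these monocytes, reached 1.23 and 1.36, and Fn1 was lower at 0.650 and 0.786. Over 6 monocyte genes 3 were called higher in each section and 1 lower in the control. Summed over all 11 monocyte genes listed, the ratio was 1.11 (1.06 to 1.16) in the control tumor and 0.993 (0.955 to 1.03) in the rIL7 tumor. In the rIL7 section this ratio was 0.836 within the edge and 0.998 within the interior.

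Lymphocyte markers were few. T cell markers passed the minimum for 2 of 14 genes, Trbc1 with ratios of 2.23 and 1.48 and Trbc2 with 1.02 and 1.08. Summed over all 14, T cell UMIs were 203.2 against 155.4 CPM in the control tumor and 437.1 against 319.0 CPM in the rIL7 tumor, ratios of 1.31 (1.18 to 1.45) and 1.37 (1.28 to 1.46). In the rIL7 section this ratio was 0.974 within the edge and 1.25 within the interior. The NK cell list had 4 and 2 of 6 genes called higher, among them the activating receptor Klrk1 at 2.82 and 2.22. Plasmacytoid dendritic cells, known as large producers of type I interferon, were read from few molecules. Their marker Siglech gave 5 UMIs or 2.58 CPM in chosen and 10 UMIs or 0.476 CPM in other control spots, a ratio of 5.42 (1.45 to 17.4). In the other tumor it gave 9 and 79 UMIs, a ratio of 1.14 (0.505 to 2.28). Siglech was under the minimum of 10 CPM. Of the 4 genes of their list that were counted, only Bst2 had a ratio above 1 in each section, and 1 was called lower in the control. The median log2 ratios of the 4 were -0.31 and -0.29. The sum of their list was carried by Bst2, itself an interferon-stimulated gene.

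In the lists of tumor, proliferation and hypoxia genes 0 were called. The CT26 markers Baiap2l1 and Rpl39l, from a list of 2 genes, had ratios of 0.755 and 0.966 in the control tumor and of 0.867 and 0.963 in the rIL7 tumor. Proliferation genes had medians of 0.24 and 0.09, with 0 of 19 called. Hypoxia genes had medians of -0.28 and -0.11, with 0 of 10 called. Their medians within the edge and within the interior were -0.35 and -0.25 in the control tumor, and -0.46 and 0.03 in the rIL7 tumor. Of 10 fibroblast genes 3 were called higher and 2 lower in the control tumor, and 2 higher and 0 lower in the rIL7 tumor. The collagen Col1a1 was higher at 1.58 and 1.64, while Dcn, which encodes decorin, was at 0.637 and 0.858 and the receptor Pdgfra at 0.602 and 0.726. Fibroblast genes therefore did not move as one group.

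The stress genes differed between the sections in these values. Hspa1b, a heat-inducible chaperone, was at 9.80 against 13.1 CPM in the control tumor and at 42.9 against 20.1 CPM in the rIL7 tumor, ratios of 0.749 (0.444 to 1.19) and 2.14 (1.70 to 2.66). Hmox1, which encodes the haem-degrading enzyme, was at 20.6 against 18.5 CPM and at 174.3 against 96.8 CPM, ratios of 1.11 and 1.80. In the treated section the log2 ratio of Hmox1 was -1.18 within the edge and 1.30 within the interior. Of the 8 genes counted 0 were called in the control tumor and 3 in the rIL7 tumor. Whether the sections differ in this beyond the spread between animals could not be tested.

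Among the genes lower in the chosen spots, those with the smallest ratios rested on few UMIs. In the control section Scara5, a ferritin receptor of fibroblasts, gave 12 UMIs or 6.19 CPM in chosen and 384 UMIs or 18.3 CPM in other spots, a ratio of 0.339 (0.173 to 0.599). The other genes with the smallest ratios there were Senp7, Apip, Bace1, Crebl2, Stc1, Gnb5 and Armcx1, at 0.357 to 0.480 on 8 to 33 UMIs in the chosen spots. In the rIL7 section Senp7 and Apip were above 1, at 1.21 and 1.38, with intervals that included 1. Bace1, Crebl2, Stc1, Gnb5 and Armcx1 were at 0.572 to 0.864 in that section. In the tumor given rIL7 genes with small ratios included Arhgap6, Aspa, Bmp4, Prkdc, Slc9a3r2, Alms1 and Zfp707, at 0.444 to 0.487 on 11 to 23 UMIs. In the control section Aspa and Prkdc were at 1.05 and 1.08, with intervals that included 1, and the others of these at 0.573 to 0.909. Bmp4, a growth factor of stroma and epithelium, was lower in both sections, at 0.573 (0.377 to 0.837) in the control tumor and 0.462 (0.290 to 0.701) in the rIL7 tumor. Its direction turned within the rIL7 edge, where its log2 ratio was 0.44 against -1.44 in the interior, and in 1 control quadrant, at 0.37. Zfp707 also turned within the rIL7 edge, at 0.28. Of the 260 and 107 lower genes 13 were shared, which is 5.00% of the control genes, where 1.16% of all genes were lower at rIL7, and 12.1% of the rIL7 genes, where 2.82% of all were lower in the control. The direction was the same within the edge and within the interior for 249 of the 260 and 91 of the 107.

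Set side by side, 390 genes were at least 1.5-fold higher in either section and 155 of these in both. The shared genes were 50.5% of the higher control genes, where 2.59% of all genes counted were higher at rIL7, and 65.1% of the higher rIL7 genes, where 3.34% of all were higher in the control. Of the 155, 65 are in the 4 lists of interferon biology. Another 80 are in none of the lists. Those named here were picked after their values were seen: Apol9b (6.50 and 2.79), Ifi209 (5.53 and 3.82), Slfn4 (5.10 and 2.37), Daxx (3.43 and 2.55) and Siglec1 (2.61 and 1.96), a macrophage lectin. They also include complement genes, with Cfb at 3.76 and 2.59, C4b at 2.46 and 1.81 and C3 at 1.65 and 1.68. The costimulatory genes Cd40 (3.15 and 1.88) and Cd86 (1.93 and 1.67), the cytokine Il15 (1.86 and 2.06) and the interleukin 18 inhibitor Il18bp (2.48 and 1.83) were among them too.

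Ratios were larger in the control section for 131 of these 155 genes and for 46 of the 52 type I effectors. The limit for a chosen spot was itself higher in the control section. The control limit applied to both left 114 rIL7 spots beside 222 control spots. The median of the type I effectors was then 1.05 rather than 0.97 in the rIL7 section, and it was 1.41 in the control. The part of the limit in these ratios was not tested. With 1 section per group, a difference between sections cannot be told apart from one between animals or libraries. For the interferon gamma induced genes 25 of 26 ratios were larger in the control. The order was the other way for MHC class II, where 7 of 7 ratios were larger in the rIL7 section, and for macrophage genes, where 10 of 14 were. Within the edge alone this order turned, with class II medians of 0.26 (control) and 0.12 (rIL7) and macrophage medians of 0.14 and 0.08, and within the interior they were 0.31 against 0.49 and 0.08 against 0.30. Over all 9204 genes 4761 ratios were larger in the control section. Across genes, which are not independent replicates and share the libraries and depth of their section, Pearson's r of the log2 ratios was 0.55.

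**Figure D4:**
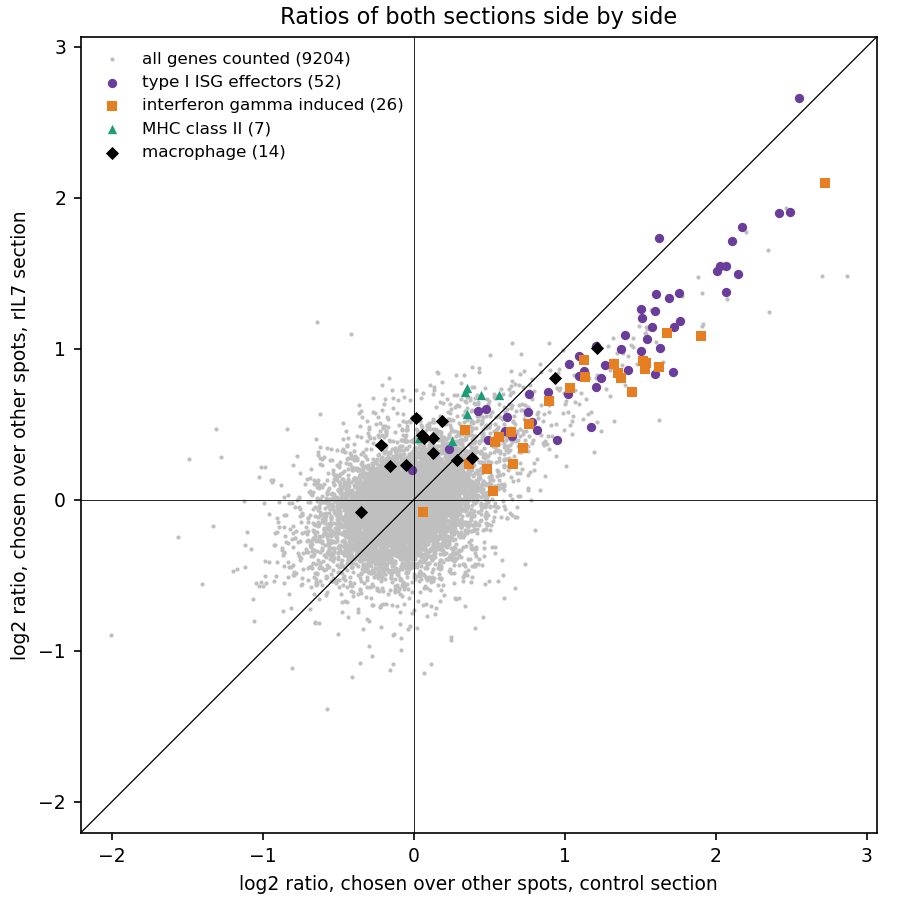
Log2 ratio of each of the 9204 genes counted, chosen over other spots, in the control section (x axis) and the rIL7 section (y axis), with the diagonal as a line. Type I effectors (purple) and interferon gamma induced genes (orange) lie mostly below the diagonal, 46 of 52 and 25 of 26, and MHC class II genes (green) lie above it, 7 of 7.

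The chosen spots were not spread evenly over the tissue. Of the control spots chosen, 41.9% (35.3 to 48.7%) lay at the edge, within 2 grid steps of the outside, against 15.4% (13.9 to 17.1%) of the other spots. In the rIL7 section the shares were 36.9% (30.1 to 44.1%) and 14.7% (13.1 to 16.4%). Going inward, the share of spots chosen in the control section was 23.2% at the outermost step, 17.4% at the third, 8.72% at steps 5 to 6 and 1.90% at 10 steps or more. In the treated section the share was 20.3% at the outermost step, 25.7% at the third and 6.46% at steps 5 to 6. It was lowest at steps 7 to 9, at 2.91%, and stood at 4.71% at 10 steps or more. In both tumors chosen spots were thus most frequent within a rim several spots deep. Other spots of the edge had a median of 11918 UMIs in the control tumor and 11478 UMIs in the rIL7 tumor, against 9578 and 13208 in the interior, and the part of depth and edge in the gene values was not tested.

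The pattern was not confined to the rim. Within the interior the median log2 ratio of the type I effectors was 1.43 in the control tumor and 1.01 in the rIL7 tumor, and within the edge 1.17 and 0.70. For the interferon gamma induced genes these were 0.9998 and 0.75 in the interior and 1.01 and 0.29 at the edge. Of the genes called higher, 303 of 307 and 209 of 238 had the same direction within the edge and within the interior. Chosen spots of edge and interior had nearly the same summed type I effector level, 10123 and 9809 CPM in the control tumor and 8574 and 8314 CPM in the rIL7 tumor. All of them had passed the same limit of their section. The sum that chose them was 2165 and 2202 CPM in the control tumor and 1356 and 1551 CPM in the rIL7 tumor. Similar effector levels may thus follow from the choice, and no conclusion is drawn from them. Among the other spots, the summed type I effectors were higher at the edge than in the interior. They were at 5302 against 4420 CPM in the control tumor and at 5847 against 4593 CPM in the rIL7 tumor.

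Chosen spots lay next to each other. Of the grid neighbours of a chosen spot 42.2% were themselves chosen in the control tumor and 34.9% in the rIL7 tumor, and of the neighbours of other spots 6.02% and 7.00%. Within the interior alone these shares were 32.8% and 30.7%, where 6.98% and 7.57% of all interior spots were chosen. They formed 77 connected patches in the control tumor and 73 in the rIL7 tumor, of which 49 and 46 were single spots. The 9 control and 12 rIL7 patches of at least 5 spots held 56.3% and 56.9% of the chosen spots. The control section was uneven, with 3.59 to 21.7% of the spots chosen in its 4 quadrants, and the rIL7 section more even, with 8.23 to 11.9%.

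Around a patch the type I effectors fell off within a few spots. In the interior of the control section their summed level was 9809 CPM in chosen spots, 5261 CPM at 1 step, 4503 CPM at 2 steps and 4022 CPM at 5 steps or more. In the tumor given rIL7 the same levels were 8314, 5384, 4482 and 4086 CPM. The first ring was thus well below the chosen spots and still above the distant tissue. The macrophage sum in the control interior was 5460 CPM in chosen spots, 4855 CPM at 1 step and 5699 CPM at 5 steps or more, and in the rIL7 interior 7049, 6037 and 5069 CPM. Nearby spots were left out of the choice for their level of the 8 genes, so some fall between chosen spots and their neighbours follows from the choice.

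**Figure D5:**
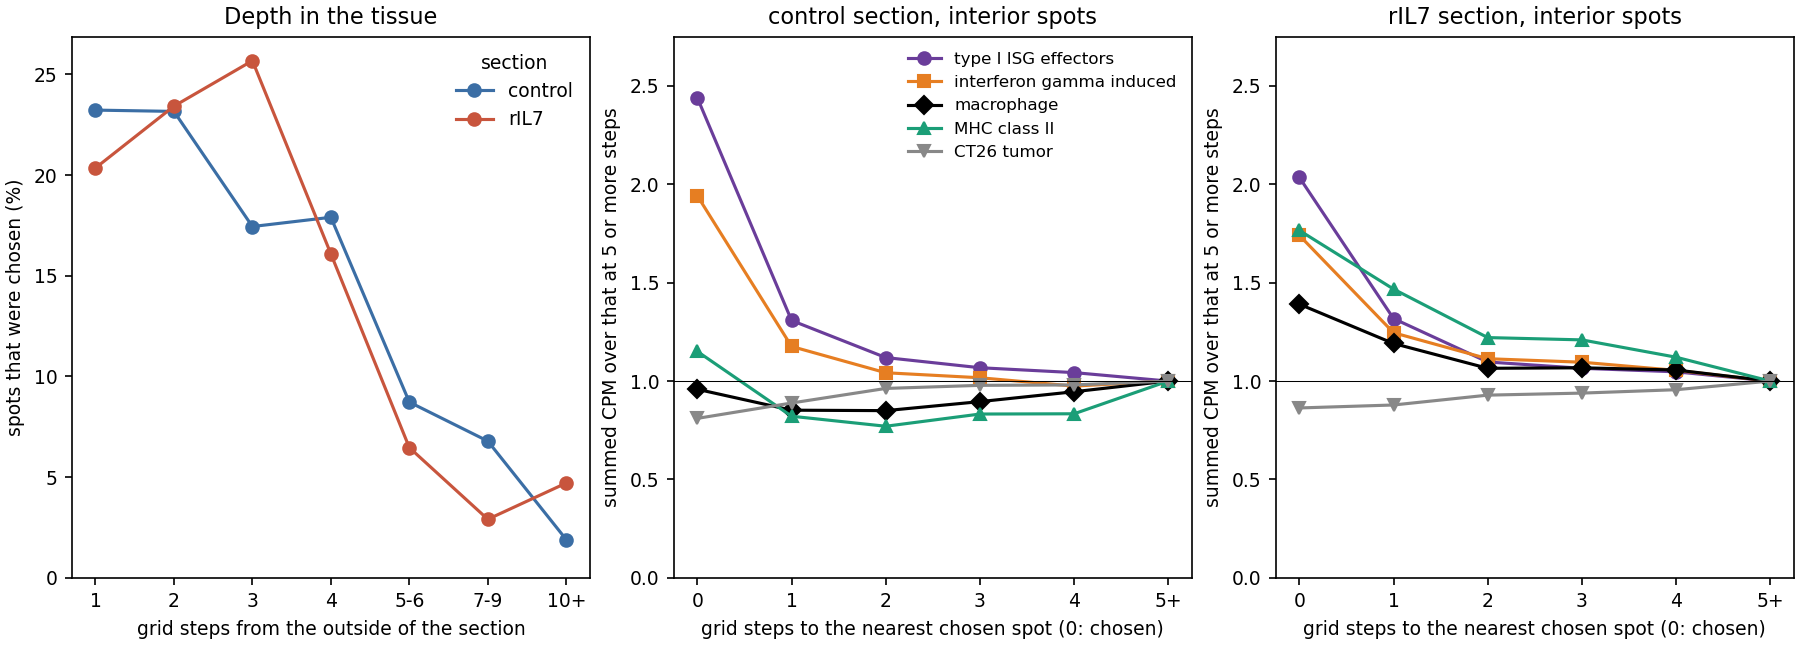
Left, percent of spots chosen by grid steps from the outside of the control (blue) and rIL7 (red) sections. It was 23.2% and 20.3% at the outermost step and 1.90% and 4.71% at 10 steps or more. In the rIL7 section it was highest at the third step, 25.7%, and lowest at steps 7 to 9, 2.91%. Middle and right, summed CPM of 5 gene lists in interior spots by grid steps to the nearest chosen spot, divided by the value at 5 steps or more, where the type I effectors fall most between steps 0 and 1 in both sections.

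The patches differed from each other. For each patch of at least 9 spots the 8 leading genes are given, those with at least 10 UMIs and the highest lower bound of the ratio to the other spots. The largest control patch held 44 spots, 15 of them at the edge, with 13253 CPM of type I effectors, and its leading genes were Ly6c2, Slfn4, Cxcl10, Phf11b, Irf7, Ccl5, Apol9b and Apod. Without it the median of the type I effectors in the control section was 1.27. A control patch of 11 spots, 10 at the edge, held 5317 CPM of keratinocyte genes, against 41.5 to 86.5 CPM in the other control patches of 9 spots or more. Its leading genes included the skin genes Jup and Lgals7 beside Cxcl9 and Ccl8. Over the whole control section Krt14, the keratin of the basal epidermis, gave 170 of its 250 UMIs in chosen spots, 96.5% of those in 5 spots, so its excess rested on a few spots.

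The largest rIL7 patch, of 21 spots, 11 of them at the edge, was led by Oas1a, Apol9b, Oas1g and Apol9a together with the collagens Col1a1 and Col5a3. It held 3770 CPM of fibroblast genes, close to the 3762 CPM in the other spots of the rIL7 edge. The other rIL7 patches of 9 spots or more held 1887 to 3588 CPM of these genes. A patch of 12 spots lay wholly in the interior and was led by Hcar2, Apol9a, Il1r2, S100a8, Slfn4, Cxcl10, Il1b and Hspa1b. It held 1202 CPM of neutrophil genes, where the other rIL7 patches of 9 spots or more held 139.6 to 436.4 CPM, and 7716 CPM of hypoxia genes. S100a8 and Il1r2 mark neutrophils and Il1b encodes interleukin 1 beta. A patch of 11 spots, 9 at the edge, was led by Spon1, Ifi27l2a and the class II genes H2-Aa, H2-Eb1, Cd74 and H2-Ab1, with 11851 CPM of class II and 13271 CPM of macrophage genes. Irf7 was among the leading genes in 4 of the 7 control and 4 of the 6 rIL7 patches of this size.

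Across all spots the type I effectors rose along the ranking on the 8 genes, not at the limit alone. With the spots of each section ranked on the 8 genes and cut into deciles, the summed type I effectors ran from 3896 CPM in the lowest decile over 4256 CPM in the fifth and 6311 CPM in the ninth to 9964 CPM in the highest in the control. In the rIL7 section the same values were 3987, 4535, 6303 and 8390 CPM. CT26 markers ran the other way, from 1386 to 1083 CPM in the control tumor and from 1130 to 948.4 CPM in the rIL7 tumor. The macrophage sum climbed from 4784 to 8328 CPM in the rIL7 section, and in the control from 4185 CPM in the lowest decile to 5651 CPM in the highest, with 5717 CPM in the sixth. The share of spots at the edge climbed over the same deciles, from 5.86 to 42.1% and from 7.69 to 36.9%.

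Spots that were among the highest 10% for other lists overlapped in part. Of the chosen spots, 73.0% (66.6 to 78.7%) in the control tumor and 61.5% (54.3 to 68.4%) in the rIL7 tumor were also in the highest 10% for the type I effectors. None of these effectors chose the spots, but some are relatives, in the Oas and Ifit families, of genes that did. Reads may be split between such relatives, and both sums were divided by the UMIs of the same spot. This overlap is therefore not independent of the choice and tests nothing. For the interferon gamma induced genes the shares were 58.6% (51.8 to 65.1%) and 35.4% (28.7 to 42.5%), for MHC class II 27.0% and 23.6% and for T cell genes 17.6% and 19.0%. For macrophage genes they were 15.8% and 22.1%, for hypoxia 6.31% and 12.3% and for the CT26 markers 5.86% and 7.18%.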

How the data were processed

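Spatial gene expression was measured with Visium (3' v1) on 1 control and 1 rIL7 tumor section. Per the submitters' processing notes, reads were processed with Space Ranger 1.1.0 on mm10. What the authors deposited are UMI counts, not normalized, of 32285 features in every spot. The barcodes, gene identifiers and array positions deposited with them were used as given. Spots over tissue with more than 200 genes and under 10% mitochondrial UMIs were kept, which removed 2 control spots and 1 rIL7 spot.

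UMIs of 8 genes were summed per spot, divided by the spot's UMIs and multiplied by 1e+06 (CPM), and the highest 10% of spots of each section were chosen. UMIs of chosen and of other spots were then summed per gene, and the ratio of their CPM was given with an exact binomial (Clopper-Pearson) 95% interval, which covers counting error only. Genes with at least 10 CPM in both sections and a unique symbol (38 symbols were duplicated) were counted, and called at 1.5-fold. A group at 0 UMIs was set to a floor of 3 UMIs in list medians. Summed list levels include every listed gene with a row. The edge is the outer 2 grid steps of the main connected piece of spots, and 4 quadrants were cut at the median row and the median column of the array. With 1 section per group no test was run. Barcodes name array positions, so 1701 kept barcodes occur in both sections. Genes named are the 8, the fixed members Irf7, Stat2, Irf9, Ifnb1, Ifng, Cxcl9 and Cxcl10, list members, and per section the 12 largest and 8 smallest ratios among counted genes whose interval lay past 1 and whose direction was shared by 4 quadrants, and some genes that this rule takes in are not reported here. The spots, the 26 lists and this rule were chosen with earlier results of these data known. Coordinates are from RefSeq GRCm38.p6, in which 9089 of 9204 counted genes had a symbol (98.8%).

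The code for the ratios was checked on simulated counts. Results were recomputed under 18 other settings and 4 more added after seeing the data, with edgeR 4.0.16 (TMM factors) and DESeq2 1.42.0 (size factors) used for scaling only, in R 4.3.3. Other steps used Python 3.11.15, numpy 2.4.6, scipy 1.17.1 and pandas 2.3.3.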

Additional observations from a re-analysis of the deposited data

Results flagged for a closer look

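Among the 9204 genes counted, 3 were past 1.5-fold in opposite directions in the 2 sections. The ratio of chosen to other spots was 1.59 (control) and 0.666 (rIL7) for Rad51b, a gene of homologous recombination, and both intervals lay past 1. For Hcar2, the hydroxycarboxylic acid receptor, the ratios were 0.642 and 2.26, and the control interval included 1. For Zbtb25, a zinc finger gene, they were 1.52 and 0.638, and the rIL7 interval included 1. The difference between the sections was not tested, since each has 1 section. Hcar2 led the 12-spot interior patch of the rIL7 section.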

How the results depend on the processing

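The median log2 ratio of the type I effectors stayed above 0 under all 21 alternatives that give one, at 1.101 to 1.73 in the control and 0.80 to 1.12 in the rIL7 section, and that of the interferon gamma induced genes at 0.71 to 1.29 and 0.54 to 0.86. Choosing the top 5% of spots gave 1.73 (type I) and 1.29 (gamma induced) in the control, 475 higher and 662 lower genes there and 319 lower genes in the rIL7 section. The top 20% gave 1.101 and 0.71 in the control, 0.80 for type I in the rIL7 section, 181 higher and 81 lower control genes and 40 lower rIL7 genes. Ranking within the interior alone gave 1.27 and 0.83 in the control, ranking over a spot and its neighbours 1.28 for type I, and weighting the 8 genes equally 0.94 for gamma induced genes. A minimum of 5 CPM gave a type I median of 1.503 in the control, with 419 and 231 lower genes in the control and rIL7 sections. A minimum of 20 UMIs also gave 1.503, with 1016 and 865 higher and 952 and 730 lower genes. A minimum of 20 CPM gave 135 and 31 lower genes and 150 higher rIL7 genes, and 2-fold gave 118 and 57 higher and 22 and 9 lower genes. The counts of lower genes were also larger where fewer UMIs were read, at 506 and 302 when spots were chosen on a random part of each spot's UMIs (50%) and read in the rest, sharing 150 and 48 genes with those reported. In that setting 234 of the 307 and 176 of the 238 higher genes kept their call, and the type I medians were 1.39 and 0.96. Thinning spots to 5000 UMIs, with 129 control and 49 rIL7 spots under that depth left out, gave 457 and 382 lower genes, kept 240 and 165 of the higher genes and gave type I medians of 1.38 and 0.85. Added after seeing the data, the control limit for both sections gave 250 lower rIL7 genes, and leaving out the largest patch a type I median of 1.27 in the control. TMM scaling shifted log2 ratios by -0.03 in the control and less than that in the rIL7 section. No paired analysis was possible because each group has 1 section. Depth limits what can be said of genes with few UMIs, among them the interferon genes and the lower genes.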

Other observations

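Immunoglobulin transcripts in the chosen rIL7 spots came mostly from few spots, and those of chaperones less so. The genes of this paragraph were picked after their values were seen. In the rIL7 section Igkc, the kappa light chain constant gene of plasma cells, gave 469 of its 3228 UMIs in chosen spots, 59.7% of them in 5 spots, and 2727 of all its UMIs lay at the edge. Ighg1 gave 201 UMIs in 28 chosen rIL7 spots, 80.1% of them in 5. In the control section Igkc gave 37 UMIs in all. Cxcl10, by contrast, was found in 196 of the 222 chosen control spots and 188 of the 195 chosen rIL7 spots, with 13.1% and 13.7% of its chosen UMIs in the 5 highest. Ly6c2 was found in 114 and 86 chosen spots. Hspa1a, a heat-inducible chaperone, gave 141 UMIs in 52 chosen rIL7 spots, 44.7% of them in 5, and 2 UMIs in the chosen control spots. Hspa1b gave 100 UMIs in 56 chosen rIL7 spots, 32.0% of them in 5, and 19 UMIs in 18 chosen control spots.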
